A study of Mus musculus with 65 samples.

Results

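Prdm8, Prdm12, Prdm13 and Prdm16 are 4 of the 25239 genes in the expression table. They were taken by name, with no measured value in the rule, although earlier results of these data were known by then. The 4 genes were followed through all 25 groups of day, SAG concentration and sorted cell type. Wild-type HM1 mouse embryonic stem (ES) cells were turned into neuromesodermal progenitors (NMPs) by day 3 and then given retinoic acid with 0, 10, 100 or 500 nM of SAG, an agonist of Smoothened that stands in for Sonic hedgehog (Shh). On days 4, 5 and 6 fixed cells were stained, selected for SOX2 and sorted. The p3 gate took NKX2.2+ OLIG2- cells and the pMN gate OLIG2+ cells, while p2 cells carried PAX6 and NKX6.1, and p0-1 cells carried PAX6 without NKX6.1. The p0-1 cells came from 0 and 10 nM SAG, the p2 cells from 10 and 100 nM, and the pMN and p3 cells from 100 and 500 nM. The 65 libraries held 7615114 to 13484815 reads each. All groups share 1 cell line, so no replicate is a separate animal. Independent differentiations are stated for the accessibility samples and not for the RNA libraries, so p-values measure the spread between these libraries, which may be technical.

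The 4 genes encode PR domain zinc finger proteins, a family of transcriptional regulators that share a PR domain related to the SET domain of histone methyltransferases. In the developing spinal cord they are known from progenitors of the intermediate and dorsal neural tube. PRDM8 acts as a repressor together with BHLHE22. PRDM12 recruits the methyltransferase G9a, encoded by Ehmt2, marks p1 progenitors, in which it holds the p0 factor DBX1 in check, and is needed for pain-sensing neurons. PRDM13 works with PTF1A in dorsal progenitors to favour inhibitory neurons. PRDM16 is itself linked to histone methylation, binds CtBP corepressors and is best known from neural stem cells and brown fat.

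The label of the 4 genes as factors of p0-1 and p2 held only in part. On days 5 and 6 Prdm13 was at 0 reads in all 12 p2 libraries, and Prdm16 reached at most 2.32 normalised reads there, so both marked p0-1 alone of these 2 cell types. Prdm12 was found in p0-1 and, in p2, only among cells from 10 nM SAG. Prdm8 was the one gene of the 4 with its highest mean in p2, and it was also present in pMN.

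The genes lie at 4 separate loci of the mm10 build. Prdm8 spans chr5:98180869-98187448 on the plus strand in 4 exons, and Prdm12 spans chr2:31640037-31655795 on the plus strand in 5 exons. Prdm13 at chr4:21677480-21685963 and Prdm16 at chr4:154316125-154636873 are both on the minus strand of the same chromosome, with 4 and 17 exon blocks. The 250 bases before each start are shown to set the 3 genes that were highest in p0-1 beside Prdm8, which was highest in p2. They were read from RefSeq sequence of the GRCm38.p6 assembly, which held all 4 genes, and run 5′ to 3′ on the strand of the gene. Capitals mark matches on either strand to CANNTG, the E-box of bHLH factors, to TAATTA, a homeodomain core, to CATTGT, a SOX core, or to GACCACCCA, the GLI site.

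Prdm8, chr5:98180619-98180868, plus strand: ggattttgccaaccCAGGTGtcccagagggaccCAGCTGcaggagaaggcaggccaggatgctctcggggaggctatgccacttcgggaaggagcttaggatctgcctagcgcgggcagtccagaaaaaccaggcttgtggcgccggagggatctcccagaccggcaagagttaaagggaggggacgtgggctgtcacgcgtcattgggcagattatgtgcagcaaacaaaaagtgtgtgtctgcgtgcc

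Prdm12, chr2:31639787-31640036, plus strand: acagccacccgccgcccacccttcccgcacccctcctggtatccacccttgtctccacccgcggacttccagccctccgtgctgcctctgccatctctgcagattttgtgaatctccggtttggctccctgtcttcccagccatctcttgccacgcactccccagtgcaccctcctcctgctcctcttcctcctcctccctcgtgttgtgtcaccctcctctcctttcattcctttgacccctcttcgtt

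Prdm13, chr4:21685964-21686213, minus strand: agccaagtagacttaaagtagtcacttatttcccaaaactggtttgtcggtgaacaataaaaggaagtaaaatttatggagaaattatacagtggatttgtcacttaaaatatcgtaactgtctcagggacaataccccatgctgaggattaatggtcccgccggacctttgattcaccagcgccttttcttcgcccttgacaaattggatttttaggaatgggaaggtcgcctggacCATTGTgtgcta

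Prdm16, chr4:154636874-154637123, minus strand: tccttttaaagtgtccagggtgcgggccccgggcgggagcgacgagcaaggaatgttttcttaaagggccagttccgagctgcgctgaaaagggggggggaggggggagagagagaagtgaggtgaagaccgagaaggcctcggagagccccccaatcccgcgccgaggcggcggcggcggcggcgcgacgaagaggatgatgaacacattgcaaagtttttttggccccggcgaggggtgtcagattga

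The Prdm8 window held 2 E-box matches, a motif found in 66.2% of 32536 windows of the same length before mouse genes. The Prdm13 window held 1 SOX match, found in 10.5% of windows, and the windows of Prdm12 and Prdm16 held no match to any of the 4 motifs. TAATTA occurs in 4.84% of windows and the GLI site in 0.218%. Thus the 3 genes highest in p0-1 shared no match in these windows. Their base composition differed as well, from 41.6% G and C before Prdm13 to 62.4% before Prdm16. The Prdm16 window held 22 CpG dinucleotides, with an observed to expected ratio of 0.99.

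To see where each gene was on, its normalised reads were compared over the days 5 and 6 libraries of each type. Prdm8 averaged 927 ± 549 in p2 (SD, n = 12 libraries), 475 ± 301 in pMN (n = 11), 250 ± 290 in p0-1 (n = 12) and 54.5 ± 63.9 in p3 (n = 11). Prdm12 averaged 320 ± 322 in p0-1 and 71.4 ± 139 in p2, with 0 reads in all pMN and p3 libraries. Prdm13 averaged 146 ± 147 in p0-1, and 1 read in 1 p3 library was all that the other 34 libraries held. Prdm16 averaged 121 ± 127 in p0-1, against 15.3 in 1 pMN library and at most 2.64 in every other p2, pMN and p3 library. In bulk RNA of sorted cells, fewer cells that carry a transcript cannot be told apart from less transcript per cell.

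Levels can be set between genes only per length, since the exons add up to 3119 bases in Prdm8, 2471 in Prdm12, 3174 in Prdm13 and 8611 in Prdm16. Per kilobase of exon, p0-1 of days 5 and 6 held a mean of 129 normalised reads of Prdm12, 80.3 of Prdm8, 46.0 of Prdm13 and 14.1 of Prdm16. The standard deviations over the 12 libraries, 130, 93.0, 46.2 and 14.8, were as large as the means, so the first 2 genes of this order did not differ beyond their spread. In p2 the mean per kilobase was 297 ± 176 for Prdm8 and 28.9 ± 56.4 for Prdm12.

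**Figure D1:**
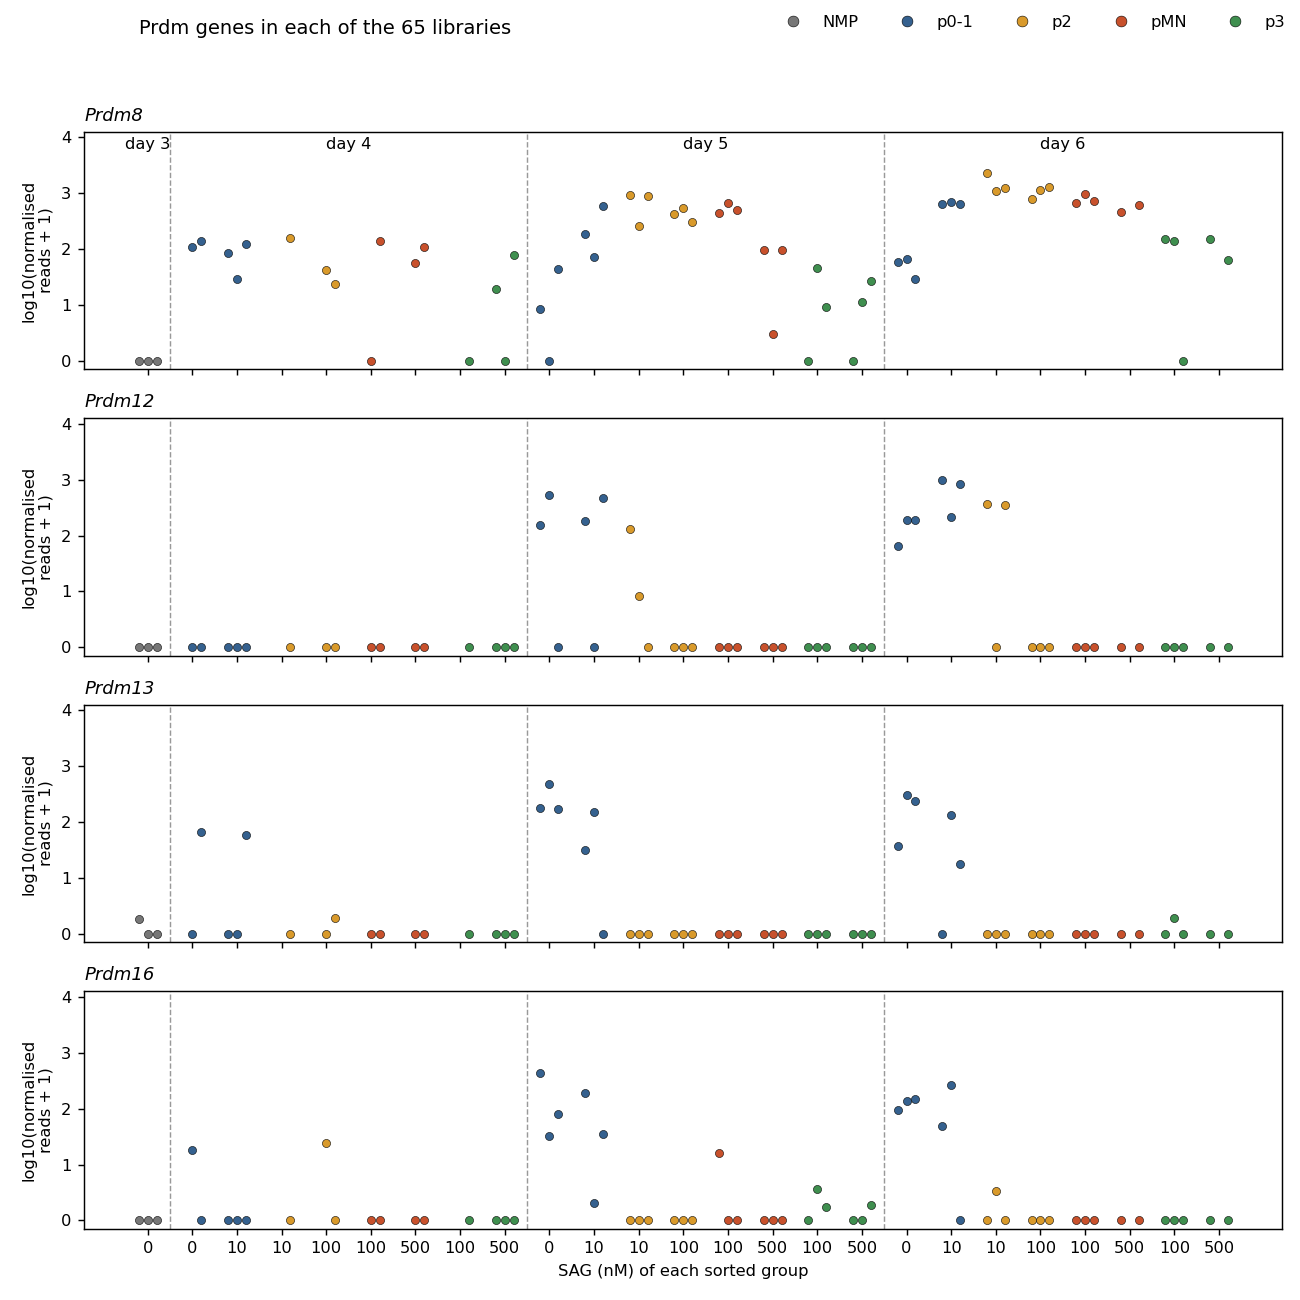
Normalised reads of each gene in each of the 65 libraries, on a log10(value + 1) axis, by sorted group from day 3 to day 6; colours give the cell type, the axis below gives SAG in nM, and each point is 1 library. Prdm8 points lie above 0 in p0-1, p2, pMN and p3, Prdm12 points only in p0-1 and p2 from day 5, and Prdm13 and Prdm16 points above 3 reads lie almost only in p0-1.

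Prdm8 was at 0 in all 3 NMP libraries of day 3 and was present on day 4 in each sorted type. On day 4 it held 107 and 136 normalised reads in p0-1 at 0 nM SAG, and 84.7, 28.3 and 121 in p0-1 at 10 nM. The 3 p2 libraries of that day held 160 at 10 nM, and 42.1 and 22.7 at 100 nM. The 4 pMN libraries held 0 and 140 at 100 nM, and 56.5 and 106 at 500 nM. In p3 it was 0 at 100 nM and 18.2, 0 and 76.7 at 500 nM, so the types overlapped on this day.

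On day 5 the levels of Prdm8 drew apart. It held 915, 253 and 885 in p2 at 10 nM SAG, and 429, 543 and 302 in p2 at 100 nM. The pMN libraries held 440, 663 and 495 at 100 nM but 96.1, 1.99 and 96.4 at 500 nM. The p0-1 libraries held 7.54, 0 and 43.2 at 0 nM, and 183, 70.9 and 588 at 10 nM. In p3 the 6 values reached at most 44.9. All 6 p2 libraries were therefore above every p3 library, a separation seen for 0.451% of genes. The p0-1 and pMN libraries each split by SAG concentration, but such a split was common on day 5. In p0-1, 3.64% of genes were separated upwards from 0 to 10 nM, and in pMN 3.65% downwards from 100 to 500 nM.

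On day 6 the highest values of Prdm8 in the series were reached in p2, with 2253, 1084 and 1222 at 10 nM, and 794, 1156 and 1290 at 100 nM. The pMN libraries held 667, 971 and 713 at 100 nM, and 464 and 621 at 500 nM. In p0-1 the values were 57.7, 66.2 and 28.4 at 0 nM against 630, 685 and 645 at 10 nM. The p3 libraries held 154, 139 and 0 at 100 nM, and 153 and 63.5 at 500 nM. Every p2 library of day 6 was above every p0-1 and p3 library of the same day, as were 0.279% of genes against p0-1 and 1.07% against p3.

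Differences between cell types were tested over days 5 and 6 with limma on log2(value + 1), and a gene was called at an adjusted p below 0.01 with a change of more than 2-fold. The p0-1 cells shared no SAG concentration with pMN or p3. In those comparisons cell type and SAG cannot be told apart. From p2 to p3, Prdm8 fell by 5.34 on the log2 scale (SE 0.83, limma adjusted p 2.09e-05), with all 11 p3 libraries below all 12 p2 libraries, a separation seen for 0.043% of genes. In this comparison 1.27% of the 13964 genes tested were called. Prdm8 was also lower in p3 than in pMN (log2 change -3.89, SE 0.85, limma adjusted p 0.00585), where 0.695% of genes were called. That call was lost in 13 of 22 fits that left out 1 library, with adjusted p up to 0.032, and with only the libraries of p3 and pMN fitted (adjusted p 0.0972).

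Prdm8 did not pass the test between p2 and p0-1, where the log2 change was 3.25 (SE 0.81, 95% interval 1.63 to 4.87, limma adjusted p 0.0344). It was called under log2(value + 10), under DESeq2 and with only the compared groups fitted. In this comparison DESeq2 called 632 genes, against 45 by limma. All 12 p2 libraries were above the p0-1 median of 68.5, and 8 were above the highest p0-1 library. At 10 nM SAG, the concentration that gave both types, p2 averaged 1102 ± 654 and p0-1 averaged 467 ± 268 (n = 6 each). The log2 change there was 1.36, with a 95% interval from -0.93 to 3.65 that includes 0.

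Between pMN and p2 the log2 change of Prdm8 was -1.45 (95% interval -3.12 to 0.22, limma adjusted p 0.563), and 0.107% of genes were called. At 100 nM SAG, where both types were sorted, pMN averaged 658 ± 187 and p2 averaged 752 ± 401 (n = 6 each), a log2 change of -0.05 with an interval from -2.35 to 2.24. These neighbours in the order of levels, p2 and pMN, did not differ beyond their spread. Nor did Prdm8 pass the test between pMN and p0-1 (log2 change 1.80, limma adjusted p 0.368, 0.96% of genes called) or between p3 and p0-1 (log2 change -2.09, limma adjusted p 0.175, 1.43% called).

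**Figure D2:**
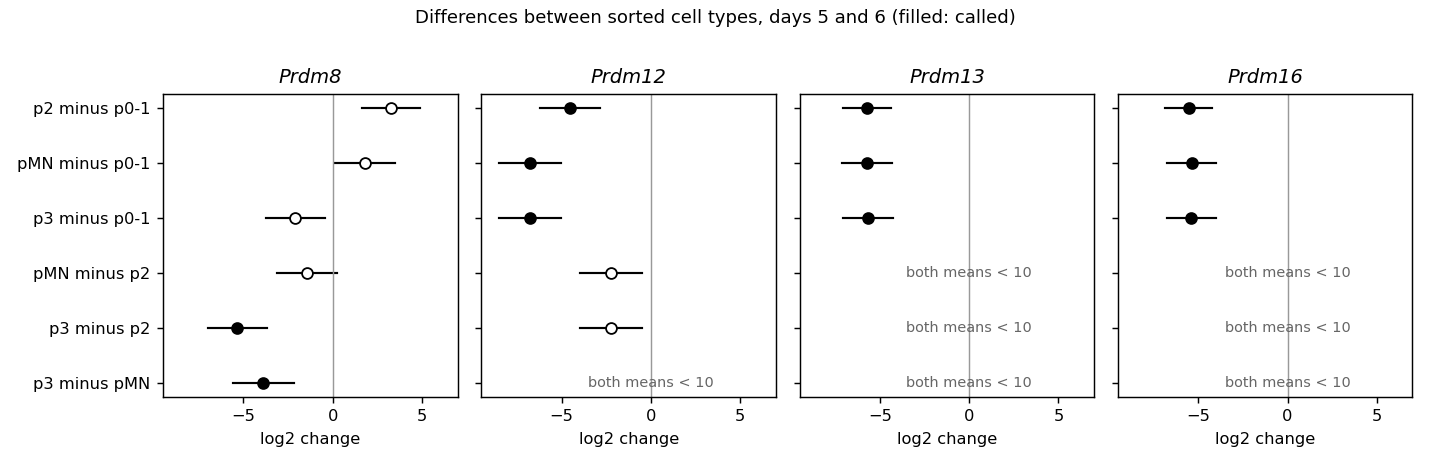
Log2 change of each gene between sorted cell types over days 5 and 6 in the limma model, as points with 95% intervals; filled points were called, open points were not, and comparisons with both means below 10 have no point. For Prdm12, Prdm13 and Prdm16 the calls are the 3 comparisons with p0-1, and for Prdm8 they are p3 against p2 and p3 against pMN.

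Prdm12 had 0 reads in all 19 libraries of days 3 and 4. On day 5 it held 153, 535 and 0 in p0-1 at 0 nM SAG, and 184, 0 and 478 at 10 nM. On day 6 it held 64.9, 193 and 192 at 0 nM, and 997, 217 and 824 at 10 nM. All 6 p0-1 libraries carried it by day 6, against 4 of 6 on day 5. In p2 at 10 nM SAG the values were 132, 7.31 and 0 on day 5, and 361, 0 and 357 on day 6. In p2 at 100 nM it was at 0 in all 6 libraries.

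From p0-1 to p2, Prdm12 fell by 4.53 on the log2 scale (SE 0.84, limma adjusted p 0.00122), with 10 of 12 p2 libraries below the p0-1 median of 192. In the pMN and p3 comparisons with p0-1 the log2 change was -6.79 each time (limma adjusted p 2.32e-07 and 1.85e-07). If 0 stands for at most 3 reads, the p0-1 mean was at least 112-fold above pMN and at least 124-fold above p3. That floor covers counting error only. In p0-1 of day 5 at 0 nM SAG, 1 replicate was at 0 beside others at 153 and 535. The call against p2 did not hold at 10 nM SAG alone, where p0-1 averaged 450 ± 392 and p2 averaged 143 ± 175 (log2 change -2.79, adjusted p 0.951), nor under edgeR, with the compared groups alone, or within either day. Against p2, the log2 change of -2.26 in both pMN and p3 was not called (limma adjusted p 0.286 and 0.137). DESeq2 called none of the 3 differences from p0-1, with adjusted p of 0.734 against p2, 0.218 against pMN and 0.163 against p3.

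Prdm13 appeared in single libraries of p0-1 on day 4, at 66.7 in 1 library at 0 nM SAG and 57.9 in 1 library at 10 nM, with 0 in the other 3. On day 5 the p0-1 libraries held 175, 487 and 172 at 0 nM, and 30.5, 153 and 0 at 10 nM. On day 6 they held 37.0, 303 and 241 at 0 nM, and 0, 135 and 17.1 at 10 nM. No library outside p0-1 held more than 1 read on any day.

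Prdm16 was on day 4 found at 17.5 in 1 p0-1 library, not one of those with Prdm13, and at 22.9 in 1 p2 library, with 0 in the remaining day 4 libraries. In p0-1 of day 5 it held 439, 31.0 and 79.1 at 0 nM SAG, and 186, 1.09 and 33.5 at 10 nM. On day 6 it held 92.0, 139 and 146 at 0 nM, and 47.8, 260 and 0 at 10 nM. On days 5 and 6 Prdm13 and Prdm16 were both above 3 reads in all 6 p0-1 libraries of 0 nM. At 10 nM both were above 3 reads in 2 of 6 libraries, and in each of the other 4 one was above 3 reads and the other at 0 or 1 read. The study describes the RNA of these fixed cells as of low quality and limited in amount. A transcript missed in a library therefore cannot be told apart from an absent one.

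Prdm13 fell by 5.73 on the log2 scale from p0-1 to p2 (SE 0.68, limma adjusted p 1.38e-07). Prdm16 fell by 5.55 (SE 0.66, limma adjusted p 1.38e-07). Each SE came from a spread shared by all 25 groups, many of them at 0 in every library. It therefore understates the spread within p0-1. In this comparison 0.322% of genes were called, and 0.129% were called lower, 3 of the 4 genes described here among them. The 4 genes were chosen with earlier results of these data known. Their calls are therefore no test of the 4 as a set against that share. Prdm13 and Prdm16 also reached the mean of 10 needed for testing only through p0-1, the type in which they were high. Against pMN the log2 changes were -5.73 and -5.36, and against p3 they were -5.65 and -5.40, all called. No SAG concentration was shared in these comparisons. With the same floor of 3 reads, Prdm13 was at least 46.9-fold higher in p0-1 than in p2 and at least 51.2-fold higher than in pMN. Here too the floor covers counting error only. At 10 nM SAG alone neither gene passed the test against p2 (Prdm13 log2 change -3.92, adjusted p 0.126; Prdm16 log2 change -4.27, adjusted p 0.0394). Under DESeq2 the Prdm13 differences were not called, with adjusted p from 0.26 to 0.39, nor was that of Prdm16 against pMN (adjusted p 0.0154).

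The 3 genes were not always detected in the same p0-1 library, with the same limit of missed transcripts. Of the 12 p0-1 libraries of days 5 and 6, 7 had Prdm12, Prdm13 and Prdm16 all above 3 reads, 4 had 2 of them and 1 had 1. In the libraries of day 6 at 10 nM with the highest Prdm12 levels, 997 and 824, Prdm13 was at 0 and 17.1 and Prdm16 at 47.8 and 0. Of the 12 p2 libraries, 4 had Prdm12 and none had more than 1 of the 3.

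**Figure D3:**
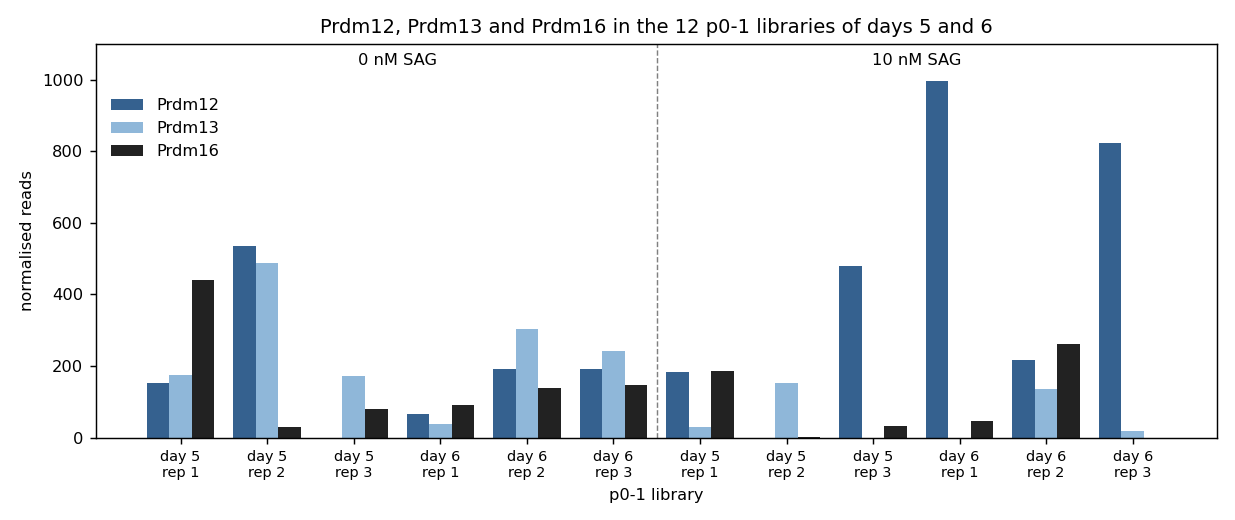
Normalised reads of Prdm12, Prdm13 and Prdm16 in each of the 12 p0-1 libraries of days 5 and 6, with 0 nM SAG on the left and 10 nM on the right; each group of bars is 1 library and the axis starts at 0. Prdm12 reaches 997 at 10 nM, while Prdm13 is highest, at 487, in a 0 nM library.

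The dependence on SAG within a sorted type was tested in p0-1 and p2. Between 0 and 10 nM SAG in p0-1, Prdm8 averaged 33.8 ± 26.7 and 467 ± 268 (n = 6 each), 13.8-fold apart. All 6 libraries of 10 nM, at 70.9 to 685, were above all 6 libraries of 0 nM, at 0 to 66.2, and 0.136% of genes were separated in this direction. The log2 change of 4.26 (SE 1.14, 95% interval 1.97 to 6.55) did not pass the adjustment over all genes (limma adjusted p 0.277), and only 0.0143% of genes did. DESeq2 called it, with a log2 change of 3.87 (DESeq2 adjusted p 0.000769), among 424 genes that it called here, against 2 by limma. The difference was seen on both days, with log2 changes of 4.78 on day 5 and 3.75 on day 6.

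Prdm13 lay in the opposite order, at 236 ± 152 without SAG and 55.8 ± 69.3 at 10 nM (n = 6 each). All 6 libraries of 10 nM were below the 0 nM median of 208, but the log2 change of -3.62 was not called (SE 0.96, limma adjusted p 0.264). For Prdm16 the log2 change was -2.27 (95% interval -4.15 to -0.38, limma adjusted p 0.914). For Prdm12 it was 1.05 (95% interval -1.34 to 3.43, limma adjusted p 1), and it turned to -0.31 when the day 5 library of replicate 3 at 0 nM was left out. Thus none of the 4 genes passed the test between the p0-1 cells of these SAG concentrations.

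One marker of more dorsal cells fell with SAG in the same p0-1 libraries. Pax3, which marks the dorsal neural tube, averaged 335 ± 228 at 0 nM, from 133 to 762, and was at 0 in all 6 libraries of 10 nM (log2 change -8.14, limma adjusted p 3.02e-10). Of the 12 dorsal progenitor markers 3 were tested, and Pax3 was the one called. The summed level of the 12 ran from 151 to 1417 at 0 nM and from 0 to 432 at 10 nM, which overlap. Of these 12 markers, 3 (Atoh1, Gsx1 and Ptf1a) were at 0 in all 12 p0-1 libraries, and 8 were at 0 in all libraries of 10 nM. Their part in the levels of Prdm13, Prdm16 and Prdm8 was not tested.

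In p2, Prdm12 averaged 143 ± 175 at 10 nM SAG, with 4 of 6 libraries above 3 reads, and was at 0 in all 6 libraries of 100 nM. The log2 change of -4.51 (SE 1.19, limma adjusted p 0.141) was not called, although it was when the day 6 library of replicate 2 at 10 nM was left out (log2 change -5.93, adjusted p 0.00941). Dbx1, which marks p0 progenitors, averaged 195 ± 154 in the same p2 libraries at 10 nM and 0.778 ± 1.09 at 100 nM (log2 change -5.95, limma adjusted p 0.000246). In p0-1 Dbx1 averaged 2263 ± 880 (n = 12). The part of Dbx1-expressing cells in the Prdm12 level of p2 was not tested. Prdm8 hardly differed between these p2 groups, with a log2 change of -0.48 (95% interval -2.77 to 1.81, limma adjusted p 0.965), and 0.0358% of genes were called.

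The pMN libraries were compared after their Prdm8 values had been seen. On day 5 Prdm8 averaged 532 ± 116 at 100 nM and 64.8 ± 54.4 at 500 nM (n = 3 each), 8.21-fold apart with no overlap. On day 6 it averaged 784 ± 164 (n = 3) and 542 ± 111 (n = 2), again with no overlap and 1.45-fold apart. A gap of this kind was common, as 3.65% of genes were separated in this direction on day 5 and 10.9% on day 6. Over both days the log2 change of -2.32 was not called (limma adjusted p 1). In this comparison 0% of genes were called by limma and edgeR, 657 genes had an unadjusted p below 0.05 and DESeq2 called 442. Not called either was the change of this difference from day 5 to day 6 (log2 3.58, limma adjusted p 1).

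**Figure D4:**
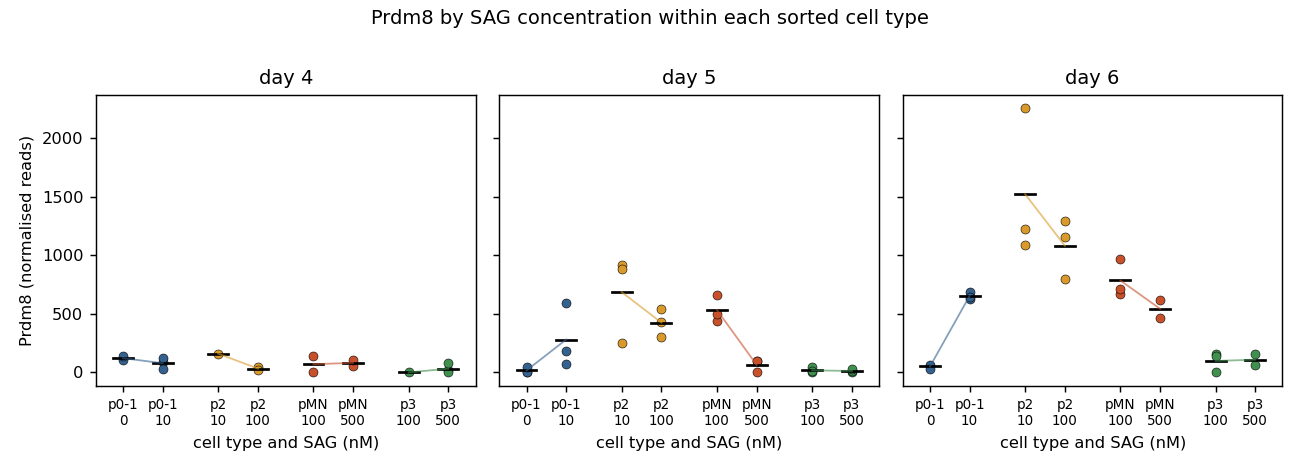
Prdm8 in normalised reads by SAG concentration within each sorted cell type, for days 4, 5 and 6; points are libraries, black bars are group means and lines join the means of a cell type. From 0 to 10 nM SAG in p0-1 the days 5 and 6 mean goes from 33.8 to 467, and in pMN of day 5 the mean goes from 532 at 100 nM to 64.8 at 500 nM.

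Over time, Prdm8 came on between the NMPs of day 3, all at 0, and the p0-1 cells of day 4, where the 5 libraries averaged 95.5 ± 42.1 (log2 change 6.5, SE 1.45, limma adjusted p 0.00288). In that comparison 2.16% of genes were called and 5.82% had all day 4 libraries above all NMP libraries. Here the call was lost in 5 of 8 fits without 1 library, with adjusted p up to 0.0193, and under log2(value + 10) (adjusted p 0.0112). From day 4 to day 5 Prdm16 rose in p0-1 from 3.50 ± 7.83 (n = 5) to 128 ± 166 (n = 6), or 4.59 on the log2 scale (SE 0.99, limma adjusted p 0.00905), where 0.337% of genes were called. This call was lost in 8 of 11 fits without 1 library (adjusted p up to 0.197), under edgeR and under DESeq2. Prdm12 went from 0 in all 5 libraries to 225 ± 232 (log2 change 5.46, limma adjusted p 0.0149), which did not pass, although it did without replicate 3 at 0 nM (adjusted p 0.000404) or replicate 2 at 10 nM (adjusted p 0.000486) of day 5. Prdm13 went from 24.9 ± 34.3 to 170 ± 173 (log2 change 3.51, limma adjusted p 0.0833), not called. It passed without replicate 3 of day 5 at 10 nM (adjusted p 0.00908). Over the same step Prdm8 went from 122 ± 20.4 (n = 2) to 16.9 ± 23.1 (n = 3) at 0 nM. At 10 nM it went from 78.1 ± 46.9 to 281 ± 272 (n = 3 each). With both concentrations its log2 change was -1.26 (limma adjusted p 0.84), not called.

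In p2, Prdm8 averaged 74.9 ± 74.2 on day 4 (n = 3), 555 ± 286 on day 5 and 1300 ± 497 on day 6 (n = 6 each). All 6 libraries of day 5 were above all 3 of day 4, as were 2.79% of genes. Neither step passed the test (log2 changes 2.79 and 1.32, limma adjusted p 0.878 and 0.727), with 0.193% and 0.15% of genes called. In pMN it averaged 75.6 ± 61.0 on day 4 (n = 4), 299 ± 269 on day 5 (n = 6) and 687 ± 184 on day 6 (n = 5), and neither step passed (log2 changes 2.05 and 2.35, limma adjusted p 0.576 and 0.72), with 0.695% and 0.0286% of genes called. From day 5 to day 6 in p0-1 none of the 4 genes was called, and 0.0645% of genes were. The log2 changes were 2.24 for Prdm8, 2.65 for Prdm12, -0.56 for Prdm13 and 0.11 for Prdm16, the sign of the last of which differed between tools. The difference between p2 and p0-1 did not change detectably from day 5 to day 6 for Prdm8 (log2 -0.92, limma adjusted p 0.987) or Prdm12 (log2 -1.50, limma adjusted p 0.956), where 0% of genes were called, with 888 at an unadjusted p below 0.05, 0 called by edgeR and 532 by DESeq2. The median over all genes lay off 0 by more than 0.1 in some of these comparisons, at -0.14 between SAG concentrations in p2, -0.16 from day 4 to day 5 in p0-1, -0.10 and -0.15 over the day 4 to 5 and day 5 to 6 steps in p2, -0.17 between NMPs and p0-1 of day 4, and -0.22 for the day 5 to day 6 change of the difference between p2 and p0-1.

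Calls were also counted among the other genes of the family. Of the 11 other PR domain genes listed, which include Prdm2 and the leukaemia-linked Mecom, 8 had a mean of at least 10 and were tested. None was called by limma, edgeR or DESeq2 in any of the 18 comparisons, and 10 of 144 tests had an unadjusted p below 0.05. Of all genes tested, limma called 0% to 2.16% per comparison, and 4.24% to 17.5% had an unadjusted p below 0.05. So few genes without a call do not set the family apart from other genes. Prdm2 averaged 955 ± 275 in p0-1, 788 ± 251 in p2, 728 ± 335 in pMN and 604 ± 400 in p3 on days 5 and 6, and was at 0 in 1 p3 library only. Prdm1 and Prdm14, which act in germ cells, were at 0 in all 12 p0-1 libraries.

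The known partners of the 4 proteins were in part present in all sorted types. In p0-1, p2, pMN and p3, Ehmt2 averaged 1260 ± 459, 1189 ± 342, 1206 ± 337 and 1635 ± 589 on days 5 and 6, and Ctbp2 averaged 2248 ± 706, 2052 ± 533, 1577 ± 577 and 1575 ± 351. Bhlhe22, the partner of PRDM8, was low, at 33.0 ± 61.2 in p0-1 and 46.6 ± 113 in p2. Ptf1a and Tlx3 were at 0 in all p0-1, p2, pMN and p3 libraries of these days. Of the 8 partners and targets, 5 were tested, and none was called between cell types by limma, edgeR or DESeq2 (5 of 30 tests had an unadjusted p below 0.05). In the same comparisons limma called 0.107% to 1.43% of all genes, and 8.16% to 17.5% had an unadjusted p below 0.05.

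Among the 7 genes of intermediate progenitors, 6 were tested. Of these 2, Dbx1 and Pax3, were called lower in p2 than in p0-1, with log2 changes of -7.42 and -4.07. Pax3 was at 0 in all p2 libraries and in all p0-1 libraries of 10 nM SAG. Its change therefore came from p0-1 of 0 nM, a concentration from which no p2 cells were sorted. The median over the 6 genes was -0.47, against -0.05 over all genes tested. Against p3, 4 were lower than in p0-1 (Dbx1, Irx3, Irx5 and Pax3) and Nkx6-2 was higher, by 5.88 on the log2 scale (limma adjusted p 3.27e-06). Among markers of sensory neurons and neural crest, Sox10 and Tlx3 were at 0 in all 12 p0-1 libraries, while the summed level of the 6 markers ran from 18.5 to 551 in p0-1 and from 0 to 237 in p2. The sum of the 6 neuronal markers ran from 231 to 2823 in p0-1 and from 854 to 5812 in p2, and its part in the Prdm8 level was not tested. In the 6 comparisons between cell types, limma called 0.107% to 1.43% of all genes. It called 13 of 30 tests of the sorted proteins, among them Nkx6-1 and Olig2 higher in p2 than in p0-1 (log2 changes 6.95 and 6.60). The cells were gated on these proteins, so such calls were in part fixed by the sort. Limma also called 3 of 18 tests of dorsal markers, all of them Pax3, 4 of 36 of neuronal and 1 of 30 of interneuron markers. For these lists in the same order edgeR called 13, 0, 3 and 0 tests and DESeq2 called 16, 3, 10 and 10. Limma called 0 of 12 tests of sensory and crest markers (6 with an unadjusted p below 0.05, 0 called by edgeR and 4 by DESeq2), 0 of 24 of neuromesodermal markers (0, 0 and 2) and 0 of 12 of fibroblast markers (0, 0 and 4).

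The genes most like each member were found by Pearson's r over the 25 group means of log2(value + 1), among 13963 other genes. The groups all share 1 cell line and many share a day or a SAG concentration, so r is given as a description. For Prdm13 the closest gene was Prdm16, and for Prdm16 it was Prdm13 (r = 0.944). Prdm13 was followed by Pax3 (0.838), Dbx1 (0.829), 5930403L14Rik (0.775) and Slc1a1 (0.756), and Prdm16 by 5930403L14Rik (0.827), Dbx1 (0.807), Prdm12 (0.782) and Pax3 (0.737). Prdm12 was most like Dbx1 (0.83), then Dcc (0.813), Prdm16 (0.782), Epha3 (0.776) and 5930403L14Rik (0.774). Prdm8 stood apart, with r of 0.261, -0.07 and -0.01 to Prdm12, Prdm13 and Prdm16. Its closest genes were Ebf2 (0.861), Prmt8 (0.842), Sfrp2 (0.839), Neurod1 (0.823) and Neurog2 (0.819), of which Ebf2, Neurod1 and Neurog2 are factors of neuronal differentiation.

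Some of these likenesses involve neighbours in the genome. The unnamed gene 5930403L14Rik lies at chr4:154630691-154636367 inside the span of Prdm16 and on the same strand, with 0 exon bases shared. It averaged 140 ± 139 in p0-1 of days 5 and 6 (n = 12) and 8.73 ± 30.2 in p2 (n = 12), so reads from unspliced Prdm16 RNA cannot be told apart from its own. Prdm8 shares 1162 exon bases with the antisense gene A730035I17Rik at chr5:98183118-98185984. The library kit does not keep strand, so reads over those bases cannot be told apart. A730035I17Rik averaged 35.5 ± 40.0 in p2 and 17.1 ± 25.5 in p0-1.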

How the data were processed

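RNA from fixed, sorted cells was made into cDNA with the SMART-Seq HT kit, and the authors aligned it to mm10, counted reads per gene with featureCounts, and left out libraries that failed quality control. The deposited signal is read counts that the authors divided by 1 size factor per library, so 100% of the 834400 values above 0 were whole multiples (tolerance 1e-06) of the value of 1 read, and read counts were recovered. The deposited annotation holds other values, the gene coordinates.

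Groups follow the labels. Differences were tested with limma 3.58.1 (R 4.3.3) on log2(value + 1), a scale that understates changes of low genes. The 13964 genes whose mean reached 10 were kept. Prdm13 and Prdm16 passed this filter only through p0-1, so their comparisons with p0-1 depend on it. The model gave each group a mean, used all 65 libraries and let the variance follow the mean (residual degrees of freedom 40). Each gene had a spread shared by all groups. Groups at 0 in every library add no spread, so the SE of Prdm12, Prdm13 and Prdm16 understates that within p0-1. The p-values were adjusted over all tested genes by Benjamini-Hochberg. The call (adjusted p below 0.01, over 2-fold) takes 2 of the thresholds the study used for accessibility, as no test is stated for expression. The study also asked for a mean above 100, which was not taken here. A mean of at least 100 leaves only Prdm8 of the 4 genes tested. Alternatives used edgeR 4.0.16 and DESeq2 1.42.0 on recovered counts, another pseudocount (10), no filter or a mean of 100, TMM scaling, and fewer libraries. Limma and edgeR were run on simulated reads for the p2 and p0-1 comparison only. That setting had no missed transcripts, so it does not cover genes with replicates at 0 beside high ones. The genes and lists were chosen with earlier results of these data known, so p-values of the 4 genes are not independent evidence. Named genes are the 4 members, called genes of the lists, list genes described by level, and the 5 genes most like each member. The lists held other family members, partners, intermediate and dorsal progenitors, sorted proteins, interneurons, neurons, sensory cells, mesoderm and fibroblasts. Libraries held 7615114 to 13484815 reads; with no molecular identifiers, the limit of 3 reads behind a 0 covers counting error only.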

Additional observations from a re-analysis of the deposited data

How the results depend on the processing

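Of 43 results, 22 kept direction and side of the threshold in every alternative run. Of 1080 alternative values, 1012 kept both, 49 lost the call, 8 gained it and 11 changed sign. Why the others moved was not tested.

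For Prdm8 between p2 and p0-1 the log2 change was 2.79 under log2(value + 10), 3.25 with only the compared groups and 2.89 under DESeq2, each time called. For Prdm12 it was -3.78 on day 5 alone, -5.28 on day 6 alone, -2.79 at 10 nM SAG alone, -4.53 with only the compared groups, -6.26 under edgeR and -5.96 under DESeq2, none called. For Prdm13 it was -3.92 at 10 nM alone and -9.23 under DESeq2, and for Prdm16 -4.27 at 10 nM alone, not called.

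Against pMN, DESeq2 gave -10.6 for Prdm12, -9.36 for Prdm13 and -8.14 for Prdm16, and against p3 it gave -10.7 for Prdm12 and -9.25 for Prdm13, not called. Prdm8 in p3 against p2 was -4.55 on day 6 alone, not called. Prdm8 in p3 against pMN lost the call on day 5 alone (-4.16), on day 6 alone (-3.61), with only the compared groups (-3.88) and under edgeR (-3.18). It also lost it without any 1 of 13 libraries, which were replicates 2 and 3 of day 5 pMN at 100 nM, 1 and 3 of day 5 pMN at 500 nM, 1 of day 5 p3 at 100 nM and at 500 nM, 2 and 3 of day 6 pMN at 100 nM, 1 and 3 of day 6 pMN at 500 nM, 3 of day 6 p3 at 100 nM, and 1 and 3 of day 6 p3 at 500 nM. The values without 1 library ran from -4.30 to -3.29.

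The Prdm8 difference between SAG concentrations in p0-1 was 3.87 under DESeq2, called. The Prdm16 change in p0-1 from day 4 to day 5 was 4.58 with only the compared groups, 6.82 under edgeR and 6.51 under DESeq2, not called. From day 5 to day 6 Prdm16 was -0.0212 under edgeR and -0.0312 under DESeq2. Prdm8 between p0-1 of day 4 and NMPs was 3.34 under log2(value + 10), not called. The day 6 minus day 5 change of the Prdm12 difference between p2 and p0-1 was 0.69 under edgeR and 0.83 under DESeq2.

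Without 1 library at a time, the log2 change ran from -0.31 to 2.42 for Prdm12 between SAG concentrations in p0-1, and from -5.93 to -3.59 in p2. From day 4 to day 5 in p0-1 it ran from 4.56 to 6.83 for Prdm12, 1.99 to 5.03 for Prdm13 and 3.53 to 5.64 for Prdm16. From day 5 to day 6 it ran from -1.58 to 0.37 for Prdm13 and from -0.76 to 1.25 for Prdm16. Prdm8 between p0-1 of day 4 and NMPs ran from 6.29 to 6.80.

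A mean of at least 100 left only Prdm8 tested. The day 4 to day 5 change in p2 could not be fitted without the lone day 4 library at 10 nM.

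With the replicate number as a block, no call of the 43 results changed (Prdm8 between p2 and p0-1 3.25, adjusted p 0.0305). Same-numbered libraries of a day correlated in their deviations with a median r of 0.0334 (lowest -0.0426), against -0.0189 for different numbers, and 54 of 60 libraries correlated best with their own number. Same-numbered libraries were thus slightly more alike than others, with r of at most 0.107 between pairs of a day. What the numbers stand for is not stated, and the main model did not treat them as a pairing.

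The number of genes called depended on the tool. Limma, edgeR and DESeq2 called 45, 23 and 632 genes between p2 and p0-1, 134, 99 and 749 between pMN and p0-1, 199, 130 and 887 between p3 and p0-1, 15, 5 and 587 between pMN and p2, 178, 122 and 986 between p3 and p2, and 97, 51 and 782 between p3 and pMN. In the 12 other comparisons limma called 0 to 302 genes, edgeR 0 to 169 and DESeq2 382 to 854.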
